A study of Mus musculus with 24 samples.

Results

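The 35 genes described here are Myc and 34 nucleolar genes that act in ribosome biogenesis, from transcription of ribosomal RNA (rRNA) through its cleavage and modification to assembly of the subunits. They were taken by gene name from the 55487 distinct Ensembl genes of the deposited count table, and all 35 were found there. The libraries are bulk RNA-seq of mouse LSK cells, the lineage-negative, Sca-1-positive, KIT-positive fraction that holds blood stem cells and early progenitors. The design text describes the sort as lineage-negative KIT-positive cells and states 4 biological replicates per condition. The mouse model, called Tet-off-ME, expresses human MLL::ENL (ME), a leukaemia fusion gene, when doxycycline is withdrawn. There are 6 groups of 4 libraries. P0 WT is liver of newborn wild-type mice (postnatal day 0, P0), and P0 ME is liver of that age with ME induced in mid-gestation, at E10.5. P28 WT is bone marrow of wild-type mice aged 28 days, and E10.5-induced ME and P0-induced ME are marrow of that age with ME switched on at the stage named. The last marrow group of that age, also induced at E10.5, is labelled RLT Vav Txp, a name the labels do not expand. What drives the transactivator is not given in the sources used here, and the fusion transcript itself was not analysed here. Since every P0 library is liver and every P28 library marrow, age and tissue cannot be told apart.

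Ribosome production starts in the nucleolus, where RNA polymerase I transcribes a long rRNA precursor. Small nucleolar ribonucleoproteins (snoRNPs) modify that precursor, the small subunit processome cuts out and folds the small subunit RNA, and a separate set of factors assembles the large subunit. Myc is a transcription factor that binds the E-box sequence together with its partner Max, and many genes of ribosome production, rRNA transcription included, are among its known targets. Blood stem cells are known for low protein synthesis, and the demand for ribosomes rises in cells that grow and divide.

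Library totals ran from 31233688 to 89774511 counts, with 22351 to 26710 genes detected per library, and the lowest count of Myc in any library was 5993. Several libraries stood apart from their groups. P0 WT replicate 4 had the widest gap between long and short genes of the 35. In log2 CPM (counts scaled to library size), the mean of the 6 longest minus that of the 8 shortest was -3.37, against -1.67 to -1.05 in the other P0 WT libraries. RLT Vav Txp replicate 1 had a mean level of the 35 genes of 7.30 log2 CPM, within the 7.21 to 7.35 of the E10.5-induced ME libraries, while the other 3 of its group lay between 6.71 and 6.98. Markers of other cells also differed between libraries. The summed level of 8 macrophage genes was 677 to 2812 CPM in RLT Vav Txp and 64.2 to 95.4 CPM in P28 WT, and it was 72.8 CPM in P0 WT replicate 1 and 75.3 CPM in P0 ME replicate 1 against 1093 to 1543 CPM in the other 6 P0 libraries. Among 11 genes of the sorted population, none was at 0, and their summed level was lower in RLT Vav Txp (2764 to 3741 CPM) than in P28 WT (4949 to 5662 CPM). In bulk libraries, a change in the share of a cell type and a change per cell cannot be told apart.

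The motif that Myc and Max are known to bind, the E-box CACGTG, is shown first. RefSeq promoter windows (GRCm38.p6; 250 bases before and 50 after the start of transcription) were at hand for 29 of the 35 genes, in 32 windows; none was used for Fbl, Npm1, Myc, Rrp12, Bop1 and Rrs1. CACGTG reads the same on both strands. It was found in 7 of the 32 windows (21.9%), against 9.17% of the 16873 windows of genes tested here and 7.15% of all 32851 windows. The 7 matches, each with its flanks as 30 bases read 5′ to 3′ on the strand of the gene with the motif in capitals, were:
Nop2, chr6:125131811-125131840: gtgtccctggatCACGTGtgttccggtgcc
Pes1, chr11:3963965-3963994: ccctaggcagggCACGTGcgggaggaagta
Utp4, chr8:106893643-106893672: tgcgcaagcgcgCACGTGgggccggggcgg
Wdr43, chr17:71616220-71616249: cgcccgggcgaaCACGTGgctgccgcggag
Utp20, chr10:88826765-88826794: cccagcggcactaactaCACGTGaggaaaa
Pno1, chr11:17211540-17211569: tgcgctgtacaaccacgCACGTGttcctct
Mybbp1a, chr11:72441347-72441376: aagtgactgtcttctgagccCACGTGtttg
Utp20 and Pno1 lie on the minus strand and the other 5 on the plus strand. In Nop2 the motif begins 60 bases before the start of transcription, outside any gene that GENCODE M21 annotates. In the other 6 it lies in the annotated 5′ untranslated exon of the gene itself, beginning at base 3 (Pes1) to base 41 (Mybbp1a) of the RefSeq transcript.

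Nop2 codes for the rRNA methyltransferase of the large subunit and is the one gene with the motif upstream of its start. Its 250 upstream bases, chr6:125131633-125131882 on the plus strand, were:
Nop2 promoter: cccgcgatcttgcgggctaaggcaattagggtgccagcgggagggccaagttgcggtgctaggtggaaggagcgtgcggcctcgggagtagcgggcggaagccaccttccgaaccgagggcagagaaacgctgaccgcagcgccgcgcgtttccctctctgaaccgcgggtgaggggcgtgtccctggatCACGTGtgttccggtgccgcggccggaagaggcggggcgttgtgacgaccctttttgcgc
This stretch is 67.6% G or C and holds 30 CG pairs. A match shows the letters only, and binding of Myc was not measured in these libraries.

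Levels between genes are given per 1000 coding bases, as the mean of the 6 group means. The most abundant was Npm1, the nucleolar chaperone nucleophosmin, at 1020 CPM per coding kilobase. Ncl, which codes for nucleolin, followed at 427, Nhp2, a protein of the H/ACA snoRNPs that guide pseudouridylation, at 319.9, and Myc at 292. The least abundant were Rrp12 (10.8) and Utp20 (4.45), both large proteins of small subunit processing. Myc thus ranked 4 of 35 by this measure. All 35 genes passed the filter on low counts.

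Myc, at chr15:61985391-61990374 on the plus strand (GRCm38), had its highest group mean in E10.5-induced ME and its lowest in P0 ME. Its level was 121, 306, 291 and 323 CPM in replicates 1 to 4 of P0 WT, and in P0 ME it was 171, 256, 196 and 229 CPM. At P28 it was 351, 349, 397 and 532 CPM in WT and 608, 555, 642 and 794 CPM in E10.5-induced ME. The P28 ranges of WT and E10.5-induced ME did not overlap, and replicate 1 of P0 WT was far below its group. P0-induced ME lay between them at 423, 457, 449 and 517 CPM, inside the range of WT. RLT Vav Txp gave 554, 325, 379 and 334 CPM, where replicate 1 lay just under the lowest E10.5-induced ME library and the other 3 between 325 and 379 CPM.

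**Figure D1:**
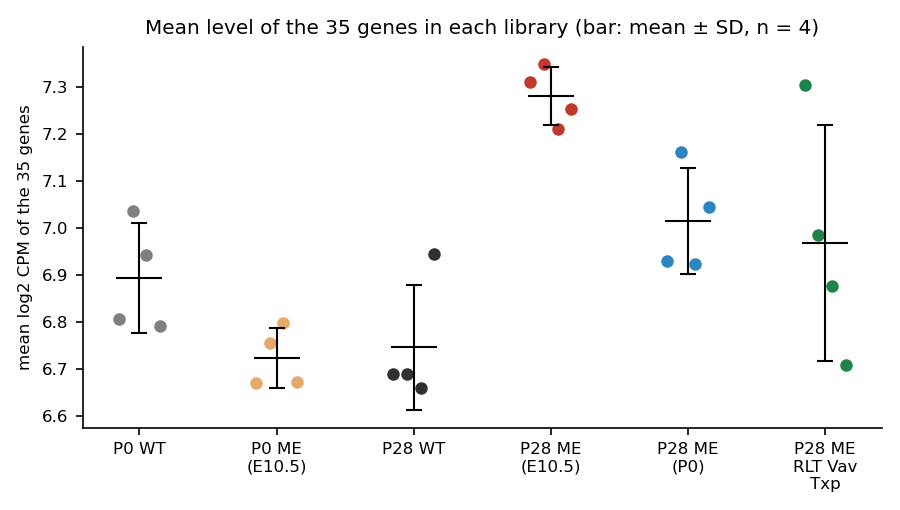
Mean log2 CPM of the 35 genes in each of the 24 libraries (points), by group, with the group mean and SD (bars, n = 4). The 4 E10.5-induced ME libraries at P28 lie between 7.21 and 7.35, and of the other 20 libraries only RLT Vav Txp replicate 1, at 7.30, reaches that range.

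**Figure D2:**
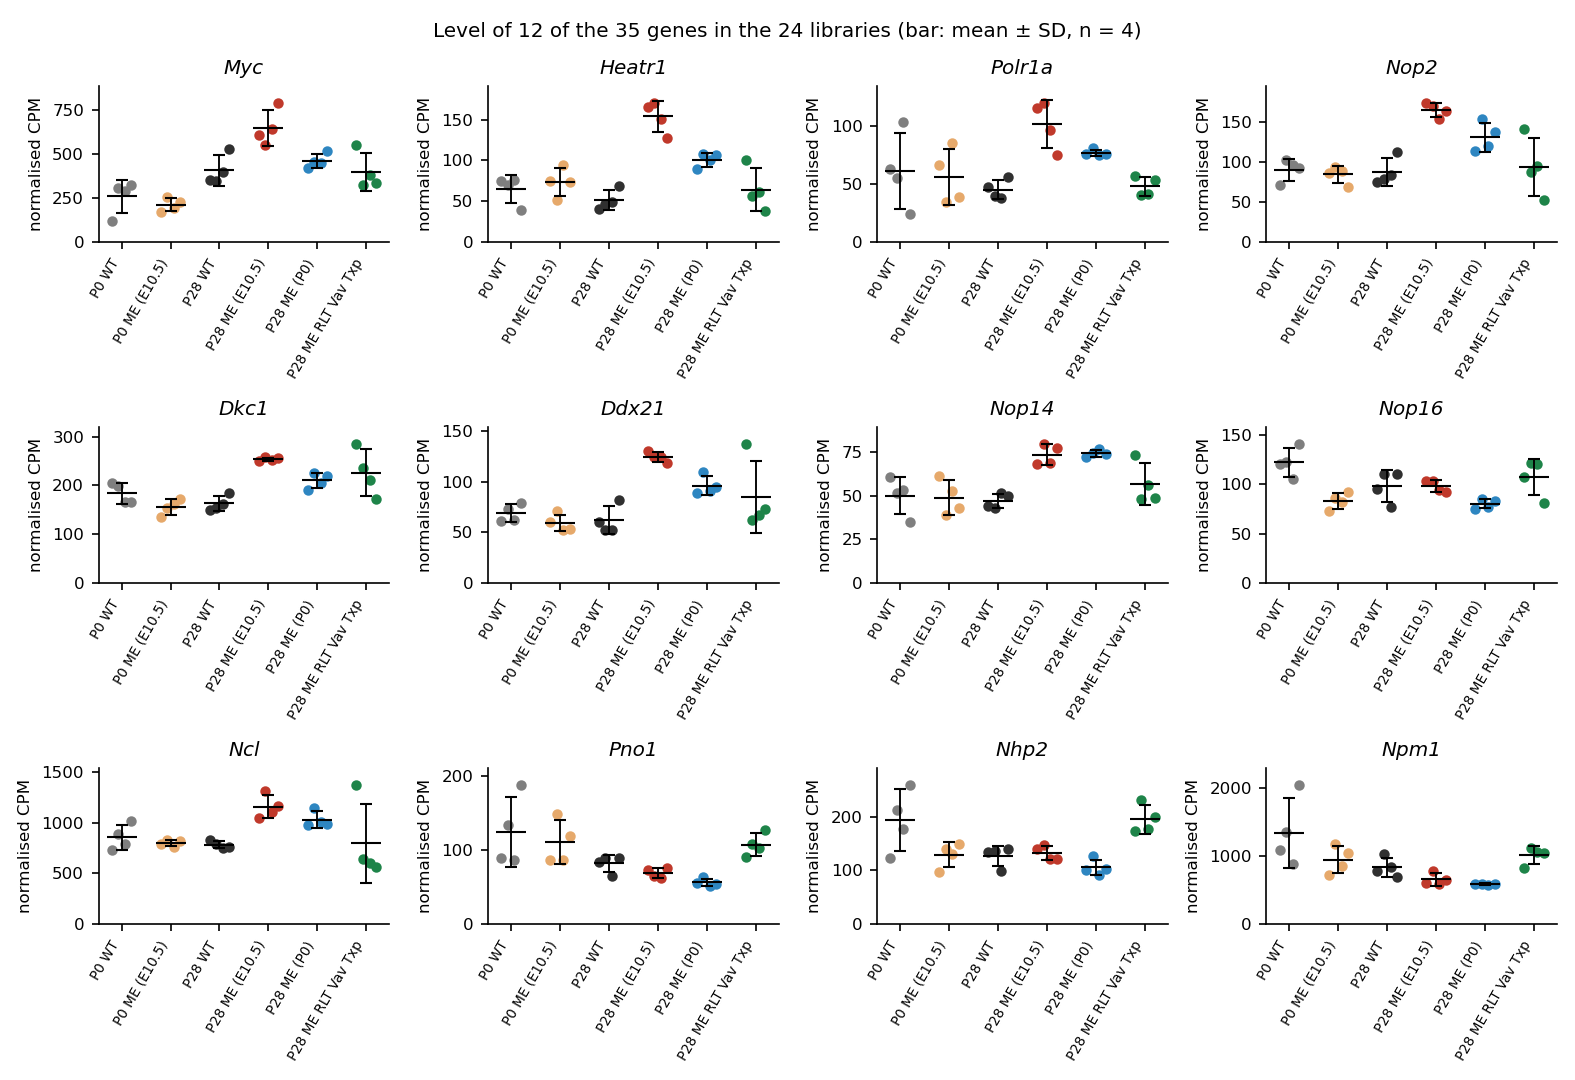
Normalised CPM of 12 of the 35 genes in the 24 libraries (points), by group, with mean and SD (bars, n = 4) and axes from 0. For Heatr1, Nop2, Dkc1 and Ddx21 all 4 E10.5-induced ME libraries at P28 lie above all 4 P28 WT libraries, while for Pno1, Nhp2 and Npm1 the ranges overlap.

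The first comparison asked how marrow cells with ME switched on in the fetus differed from wild type at P28. Of the 35 genes, 17 were higher in E10.5-induced ME and none was lower at an adjusted p under 0.05 in edgeR's quasi-likelihood test. Across all 23059 genes tested, 7.82% were called higher and 4.44% lower. The median log2 fold change was 0.57 over the 35 genes and -0.10 over all genes, and 30 of the 35 values were above 0. The ranges of the 4 ME and the 4 WT libraries did not overlap, with ME higher, for 23 of the 35, against 16.6% of all genes.

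The 4 genes with the largest log2 fold changes were Heatr1, Utp20, Rrp12 and Polr1a, all among the 6 with the longest coding sequences. Heatr1, whose product acts in both processes, lies at chr13:12395027-12440289 and measured 40.8, 46.4, 48.3 and 69.1 CPM in WT and 166, 171, 151 and 128 CPM in E10.5-induced ME. The lowest ME library was above the highest WT library, and the fold was 3.01 (log2 fold change 1.59, SE 0.25, edgeR adjusted p = 0.000693). Utp20, a scaffold of the small subunit processome, was at 18.8, 17.1, 32.9 and 33.0 CPM in WT and 70.4, 85.0, 70.2 and 46.5 CPM in ME. Rrp12, which serves maturation and export of pre-ribosomes, was at 27.9, 22.9, 25.5 and 40.5 CPM in WT and 88.7, 91.6, 71.6 and 51.4 CPM in ME. In both genes ME replicate 4 was the lowest of its group and still above WT. The log2 fold changes were 1.42 for Utp20 (SE 0.41, edgeR adjusted p = 0.0256) and 1.38 for Rrp12 (SE 0.37, edgeR adjusted p = 0.0181). Each was called in 3 of the 8 fits that left out 1 library. In all, 6 of the 9 processome genes were called higher: Heatr1, Utp20, Rrp12, Nop14, Wdr43 and Utp4. The remaining processome genes, Rrp9, Wdr75 and Pno1, did not pass the test.

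Polr1a codes for the largest subunit of RNA polymerase I. Its levels were 46.8, 39.7, 37.4 and 55.8 CPM in WT and 116, 120, 96.2 and 74.5 CPM in E10.5-induced ME, again without overlap. The log2 fold change was 1.18 (SE 0.30, edgeR adjusted p = 0.0125). Polr1b, the next largest subunit, was at 0.57 and did not pass (SE 0.21, edgeR adjusted p = 0.0755).

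Among 11 genes listed here under large subunit assembly, a role chosen for grouping only, 6 were called higher: Mybbp1a, Ddx21, Nop2, Noc2l, Ftsj3 and Rrs1. Mybbp1a, a Myb-binding nucleolar protein, differed by 1.09 (SE 0.25, edgeR adjusted p = 0.00725) and Ddx21, an RNA helicase, by 1.01 (both log2; SE 0.20, edgeR adjusted p = 0.00349). Nop2 measured 87.1 ± 17.4 CPM in WT and 165 ± 8.87 CPM in ME (SD, n = 4), which is 0.92 in log2 (SE 0.20, edgeR adjusted p = 0.00598). The other 5 of this role, Nop16, Nip7, Gnl3, Ebna1bp2 and Wdr74, did not pass. Of the 3 subunits of the PeBoW complex, which is needed to process large subunit RNA, Bop1 and Pes1 were called higher and Wdr12 was not.

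Of the 7 snoRNP genes, 2 were called. Nolc1, a chaperone that helps assemble both kinds of snoRNP, was called higher, its log2 fold change being 0.97 with an SE of 0.23 (edgeR adjusted p = 0.0076). Of the H/ACA proteins, Dkc1, the pseudouridine synthase dyskerin, was called, while Gar1 and Nhp2 were not. None of the C/D proteins, which carry out 2′-O-methylation, was called: Fbl, Nop56 and Nop58. Ncl and Npm1 did not pass either, and Npm1 had the lowest value of the 35, at -0.35.

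Myc itself averaged 407 ± 86.2 CPM in WT and 650 ± 102 CPM in E10.5-induced ME (SD, n = 4). Its log2 fold change of 0.67 narrowly missed the threshold (SE 0.23, edgeR adjusted p = 0.0540). It was called in 4 of the 10 alternatives that kept all libraries of the groups compared, with adjusted p between 0.00228 and 0.116 over the 10. Of the 8 fits that left out 1 library, 1 called it, with an edgeR adjusted p of up to 0.22.

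Other values moved with this comparison. Of 16 proliferation genes, 14 were called higher in E10.5-induced ME, with a summed level of 5163 to 7150 CPM against 2860 to 3675 CPM in WT. The fold change also followed coding length, as the plot against length shows. The part of either in the result was not tested. The number of calls depended on single libraries: it was 8, 5 and 10 without WT replicates 1, 2 and 3, and 11 and 9 without ME replicates 1 and 2, where 3.7% to 8.05% of all genes were called in either direction. No gene of the 35 was called lower in any of those fits.

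**Figure D3:**
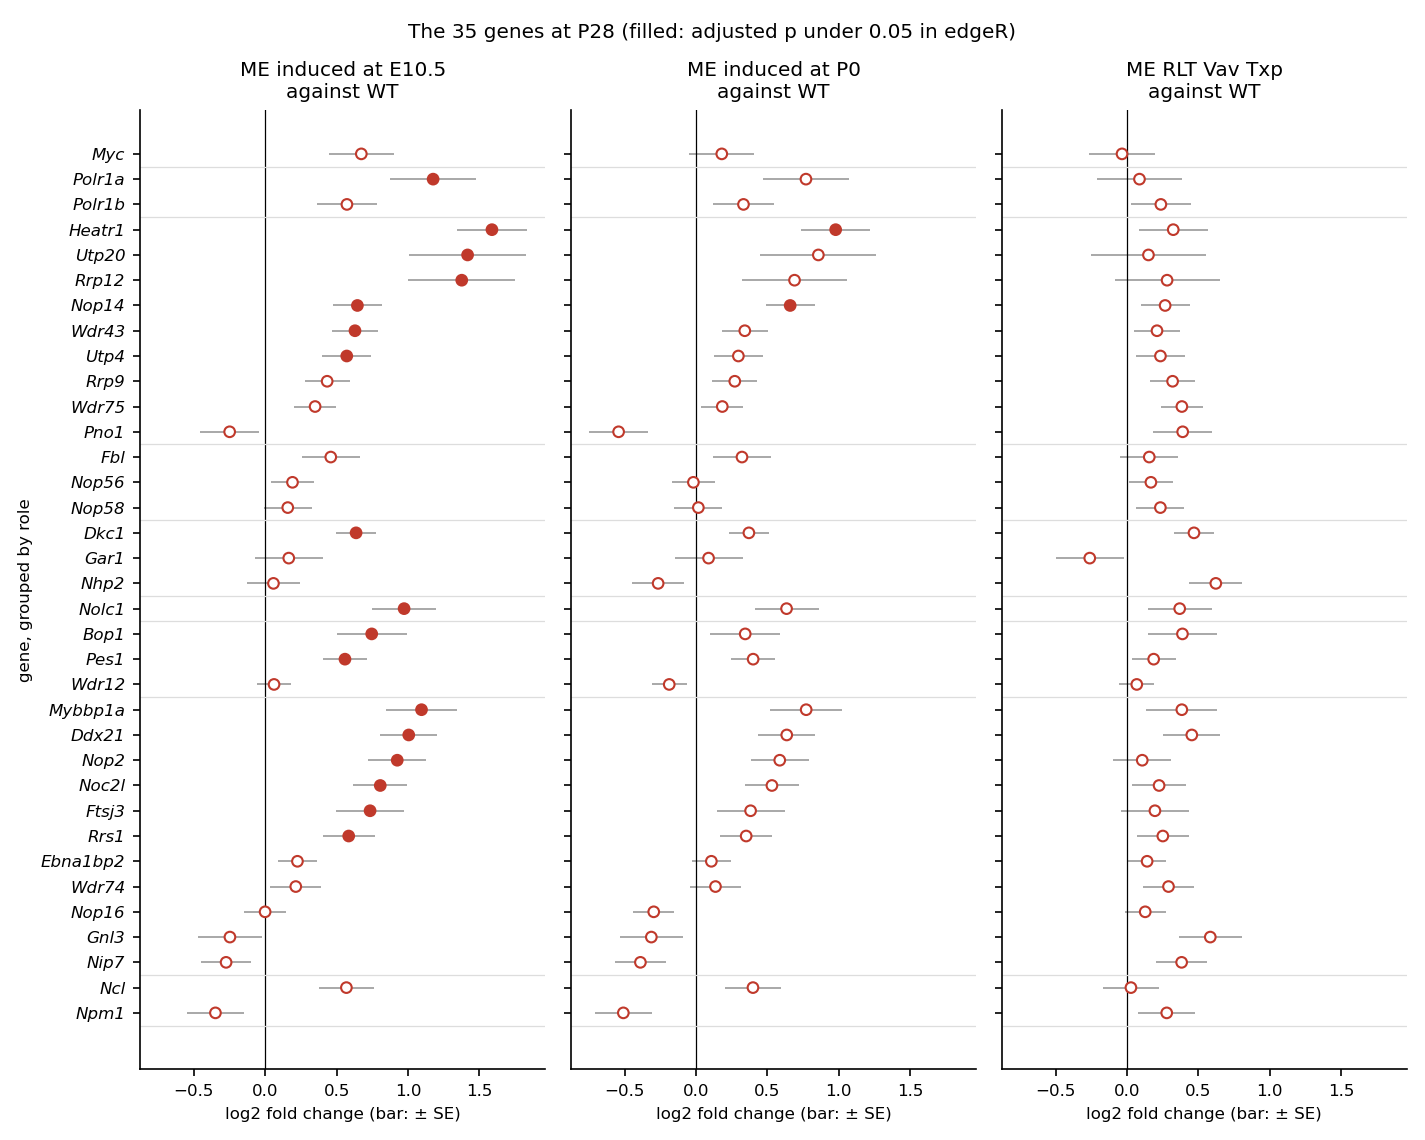
log2 fold change of each of the 35 genes at P28 in E10.5-induced ME, P0-induced ME and RLT Vav Txp, each against WT (points, with SE as bars; filled where the edgeR adjusted p was under 0.05), grouped by role from Myc at the top to the nucleolar scaffold genes. There are 17 filled points for E10.5-induced ME, 2 for P0-induced ME and 0 for RLT Vav Txp.

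The next comparison set ME switched on at birth against the same P28 WT libraries. Of the 35 genes, 2 were called higher and none lower, where 0.494% of all genes were called higher and 1.08% lower. These were Heatr1, at 88.9, 108, 100.01 and 106 CPM in the 4 P0-induced ME libraries, and Nop14, a further processome protein, at 72.2, 74.4, 76.7 and 74.0 CPM. WT ranged from 40.8 to 69.1 CPM for Heatr1 and from 43.0 to 51.4 CPM for Nop14, so the groups did not overlap for either gene. The log2 fold changes were 0.98 for Heatr1 (SE 0.24, edgeR adjusted p = 0.0454) and 0.66 for Nop14 (SE 0.17, edgeR adjusted p = 0.0498). Over the 35 genes the median log2 fold change was 0.33, with 27 values above 0, against a median of -0.09 over all genes. The fold change followed coding length here too, over the 35 genes and over coding genes in general, as described below. The part of length was not tested. Myc, at 0.18, did not pass (SE 0.23, edgeR adjusted p = 0.717).

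Both calls were close to the threshold. The count was 0 without any one of WT replicates 1 to 3 or of the 4 ME replicates. In those fits 0.0289% to 0.0414% of all genes were called in either direction, against 1.57% with all libraries. A fit of only these 2 groups called 15 of the 35 higher and 5 lower, where it called 27.9% of all genes in either direction. With limma's quality weights the counts were 15 and 4, where 21.7% of all genes were called. With GC and length offsets the median of the 35 was 0.19.

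P0-induced and E10.5-induced ME were then compared directly at P28. In edgeR's test none of the 35 passed, where 0.026% of all genes were called higher and 0.0217% lower, and 2 of the 35 had an unadjusted p under 0.05, as did 4.33% of all genes. Of the 35 values, 34 were below 0, meaning lower after induction at P0, and the median was -0.27 against -0.02 over all genes. The ranges did not overlap, with P0-induced ME lower, for 12 of the 35, against 7.18% of all genes. The 2 genes with the lowest p were Heatr1, at -0.61 (SE 0.24), and Myc, at -0.49 (SE 0.23), with an edgeR adjusted p of 1 for both. DESeq2 also called none of the 35, where 0.399% of all genes were called in either direction. In limma with quality weights 18 were called lower, where 10.1% of all genes were called in either direction, and in a fit of only the 2 groups 6 were called lower, where 6.35% were. With plain totals the median of the 35 was -0.15 and 5 values were above 0. All 16 proliferation genes were below 0, with a median of -0.61 and none called, and 14 of them had an unadjusted p under 0.05. Their part in the values of the 35 was not tested.

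RLT Vav Txp was compared with P28 WT. None of the 35 was called, where 2.64% of all genes were called higher and 1.48% lower, and 6 of the 35 had an unadjusted p under 0.05, as did 15.3% of all genes. Of the values, 33 were above 0, with a median of 0.24 against 0.01 over all genes. Nearest to the threshold were Dkc1 and Nhp2, 2 proteins of the H/ACA snoRNP. Dkc1 measured 150, 154, 162 and 185 CPM in WT and 285, 236, 211 and 171 CPM in RLT Vav Txp, where replicate 4 overlapped WT (log2 fold change 0.47, SE 0.14, edgeR adjusted p = 0.0551). Nhp2 measured 134, 135, 97.8 and 140 CPM in WT and 173, 231, 176 and 200.04 CPM in RLT Vav Txp, with no overlap (log2 fold change 0.62, SE 0.19, edgeR adjusted p = 0.0557). Myc was at -0.03 in log2 (SE 0.23, edgeR adjusted p = 0.978). DESeq2 called 2 of the 35 higher and limma with quality weights 3, where 7.13% and 6.17% of all genes were called in either direction. Without RLT Vav Txp replicate 1 edgeR again called none of the 35, where it called 3.55% of all genes. In that fit 24 values were above 0 and the median was 0.10. With plain totals the median was 0.13. Of the 8 macrophage genes, 7 were called higher in this comparison, and their part in the values of the 35 genes was not tested.

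Between RLT Vav Txp and E10.5-induced ME, both induced at E10.5, the 35 genes split in 2 directions. In RLT Vav Txp 8 were lower: Myc, Nop2, Rrp12, Polr1a, Utp20, Heatr1, Mybbp1a and Noc2l. Another 5 were higher: Npm1, Nhp2, Nip7, Gnl3 and Pno1. The background was 9.38% of all genes called lower and 8.5% called higher. The median log2 fold change was -0.34 over the 35 genes and 0.12 over all genes.

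Heatr1 in RLT Vav Txp was at 101, 56.7, 60.8 and 38.3 CPM, all below the lowest E10.5-induced ME library at 128 CPM (log2 fold change -1.26, SE 0.24, edgeR adjusted p = 0.00116). Utp20 was at 42.8, 27.4, 19.2 and 23.6 CPM against a lowest ME value of 46.5 CPM (log2 fold change -1.27, SE 0.41, edgeR adjusted p = 0.0342). Polr1a, at 56.6, 40.2, 41.3 and 52.9 CPM, also lay below all ME libraries (log2 fold change -1.09, SE 0.30, edgeR adjusted p = 0.0144). Rrp12, at 57.4, 32.3, 31.1 and 21.1 CPM, overlapped ME through replicate 1 (log2 fold change -1.10, SE 0.37, edgeR adjusted p = 0.0421). Replicate 1 was the highest of the 4 in each of these genes. Myc had a value of -0.71 (SE 0.23, edgeR adjusted p = 0.0334) and Nop2 of -0.82 (SE 0.20, edgeR adjusted p = 0.00781).

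On the other side, Gnl3, which codes for the nucleolar GTPase nucleostemin, averaged 266 ± 55.1 CPM in RLT Vav Txp and 149 ± 37.1 CPM in E10.5-induced ME (SD, n = 4; log2 fold change 0.83, SE 0.22, edgeR adjusted p = 0.0123). The ranges overlapped, since RLT Vav Txp replicate 1 (183 CPM) was below the highest ME library (203 CPM). Of the 5 genes that were higher, Npm1, Nhp2, Nip7 and Pno1 are among the 8 with the shortest coding sequences.

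The count depended on single libraries. Without RLT Vav Txp replicate 1, 24 of the 35 genes were called, 5 higher and 19 lower, where 21.5% of all genes were called in either direction, and the median of the 35 was -0.52. The count was 5, 4 and 4 without RLT Vav Txp replicates 2, 3 and 4, and 5, 7 and 4 without E10.5-induced ME replicates 1, 2 and 3. In those fits 8.51% to 11.1% of all genes were called in either direction, against 17.9% with all libraries. Without RLT Vav Txp replicate 4 the median was -0.20. The summed level of the 16 proliferation genes was 5154 CPM in replicate 1 and 2786 to 3288 CPM in the others, and 13 of the 16 were called lower against E10.5-induced ME. All 8 macrophage genes were called higher. The part of either list was not tested.

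The same question was asked in newborn liver. Between ME and WT, none of the 35 genes was called, where 0.364% of all genes were called higher and 0.278% lower, and 6 of the 35 had an unadjusted p under 0.05, as did 14.1% of all genes. Of the 35 values, 31 were below 0, with a median of -0.17 against -0.01 over all genes. Nop16, a large subunit factor, was nearest to the threshold at 120, 123, 105 and 141 CPM in WT and 73.4, 86.4, 82.0 and 92.4 CPM in ME. Its groups did not overlap, ME being lower (log2 fold change -0.55, SE 0.14, edgeR adjusted p = 0.0751). Nhp2 followed at 124, 213, 178 and 259 CPM in WT and 96.6, 140, 131 and 149.8 CPM in ME (log2 fold change -0.58, SE 0.19, edgeR adjusted p = 0.144). Myc had -0.29 (SE 0.23, edgeR adjusted p = 0.606). With plain totals the median was -0.09, and with GC and length offsets -0.27. DESeq2 called 1 gene lower, where 3.48% of all genes were called in either direction. Without P0 WT replicate 1, the library that was low in Myc, 3 were called lower, where 2.38% of all genes were called. Without P0 WT replicate 3 the count was 1, where 0.542% were. Of the 16 proliferation genes, 13 were below 0 and 3 above, with a median of -0.25 and none called. All 9 neutrophil genes were above 0, with a median of 0.98 and none called. The part of these lists was not tested.

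The 2 ages were then compared within each genotype. In WT, none of the 35 was called higher and 2 were called lower at P28, where 3.12% of all genes were called higher and 4.56% lower. These were Npm1, at 1080, 1347, 873 and 2043 CPM in P0 WT and 782, 1022, 832 and 695 CPM in P28 WT, and Nhp2, whose levels are given above. The ranges overlapped in both. The log2 fold changes were -0.68 for Npm1 (SE 0.20, edgeR adjusted p = 0.0337) and -0.61 for Nhp2 (SE 0.19, edgeR adjusted p = 0.0407). Myc, at 260.1 ± 93.9 CPM at P0 and 407 ± 86.2 CPM at P28 (SD, n = 4), had a value of 0.65 and did not pass (SE 0.23, edgeR adjusted p = 0.0848). Directions in this comparison moved with the scaling: 6 of the 35 values were above 0 with TMM scaling and 16 with plain library totals, where 1 gene was called higher and none lower. Leaving out a library gave 0 calls for each of P0 WT replicates 2 and 4 and P28 WT replicates 1, 3 and 4, 1 without P28 WT replicate 2 and 6 without P0 WT replicate 1. Of all genes, 4.72% to 6.98% were called in the fits with 0 or 1 calls and 10.2% in the fit with 6. With all libraries the share was 7.68%. Of the marker genes, 7 of 8 of macrophages and 8 of 9 of erythroid cells were called lower at P28, and their part was not tested.

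In E10.5-induced ME, 18 of the 35 were higher at P28 than at P0 and 1 was lower, where 9.79% of all genes were called higher and 8.45% lower. The median log2 fold change was 0.57 over the 35 genes and -0.18 over all genes. Myc led the list: its level was 213 ± 37.6 CPM at P0 and 650 ± 102 CPM at P28 (SD, n = 4), with no overlap, a fold of 3.05 (log2 fold change 1.61, SE 0.23, edgeR adjusted p = 5.35e-05). It was called in all 10 alternatives and in all 8 fits that left out 1 library. Polr1b measured 59.3, 34.2, 59.3 and 33.2 CPM at P0 and 107, 116, 116 and 99.1 CPM at P28, again without overlap (log2 fold change 1.23, SE 0.21, edgeR adjusted p = 0.00035). Polr1a was called higher too, while Polr1d, a polymerase I subunit outside the 35, was called lower (log2 fold change -0.69, SE 0.23, edgeR adjusted p = 0.0404). Noc2l, a large subunit factor that also acts on histone acetylation, measured 117, 136, 132 and 139.8 CPM at P0 and 298, 300.1, 299 and 265 CPM at P28 (log2 fold change 1.15, SE 0.19, edgeR adjusted p = 0.000204). Utp20 differed by 1.36 (SE 0.41, edgeR adjusted p = 0.0234) and Rrp12 by 1.14 (SE 0.37, edgeR adjusted p = 0.0340), but their ranges at the 2 ages overlapped. Heatr1 and Ddx21 each had a log2 fold change of 1.07, and Mybbp1a had 1.04, all without overlap. The other genes called higher were Fbl, Nop2, Nop14, Nolc1, Dkc1, Bop1, Wdr43, Ftsj3, Rrp9 and Polr1a. The gene called lower was Pno1, a factor of late small subunit assembly, at 86.8, 149, 86.9 and 118 CPM at P0 and 72.4, 65.1, 62.0 and 75.4 CPM at P28, with no overlap (log2 fold change -0.68, edgeR adjusted p = 0.0228). The count of 19 was 12, 10, 10 and 12 without P0 ME replicates 2 and 4 and E10.5-induced ME replicates 2 and 3, where 11.1% to 11.8% of all genes were called in either direction. Of the 16 proliferation genes, 11 were called higher and none lower, and all 8 macrophage and all 9 neutrophil genes were called lower. The part of these lists was not tested.

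Whether the ME difference itself changed between the ages was tested as an interaction. In it 3 genes passed, all with a larger ME difference at P28, where 0.468% of all genes were called in that direction and 0.252% in the other: Heatr1, Ddx21 and Dkc1. For Heatr1 the log2 difference between ME and WT was 0.18 at P0 and 1.59 at P28 (difference 1.41, SE 0.34, edgeR adjusted p = 0.0481). For Ddx21 it was -0.22 and 1.01 (difference 1.22, SE 0.28, edgeR adjusted p = 0.0414). For Dkc1 it was -0.23 and 0.64 (difference 0.87, SE 0.20, edgeR adjusted p = 0.0407). Of the 35 differences, 33 were above 0, with a median of 0.71 against -0.04 over all genes. Myc had a difference of 0.96 and did not pass (SE 0.32, edgeR adjusted p = 0.136). The count was 16 without P0 WT replicate 4, the library with the widest gap between long and short genes, and 5 without P0 WT replicate 1. Of all genes, 6.84% and 1.25% were called in those 2 fits in either direction, against 0.72% with all libraries. The count was 0 without any one of P0 WT replicates 2 and 3, P0 ME replicates 1, 2 and 4, P28 WT replicates 1 to 3 and E10.5-induced ME replicates 1 to 3. In the fits with a count of 0, 0.0452% to 0.482% of all genes were called in either direction. All 16 proliferation genes had a difference above 0, with a median of 1.18 and 5 called, and their part in the result was not tested.

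**Figure D4:**
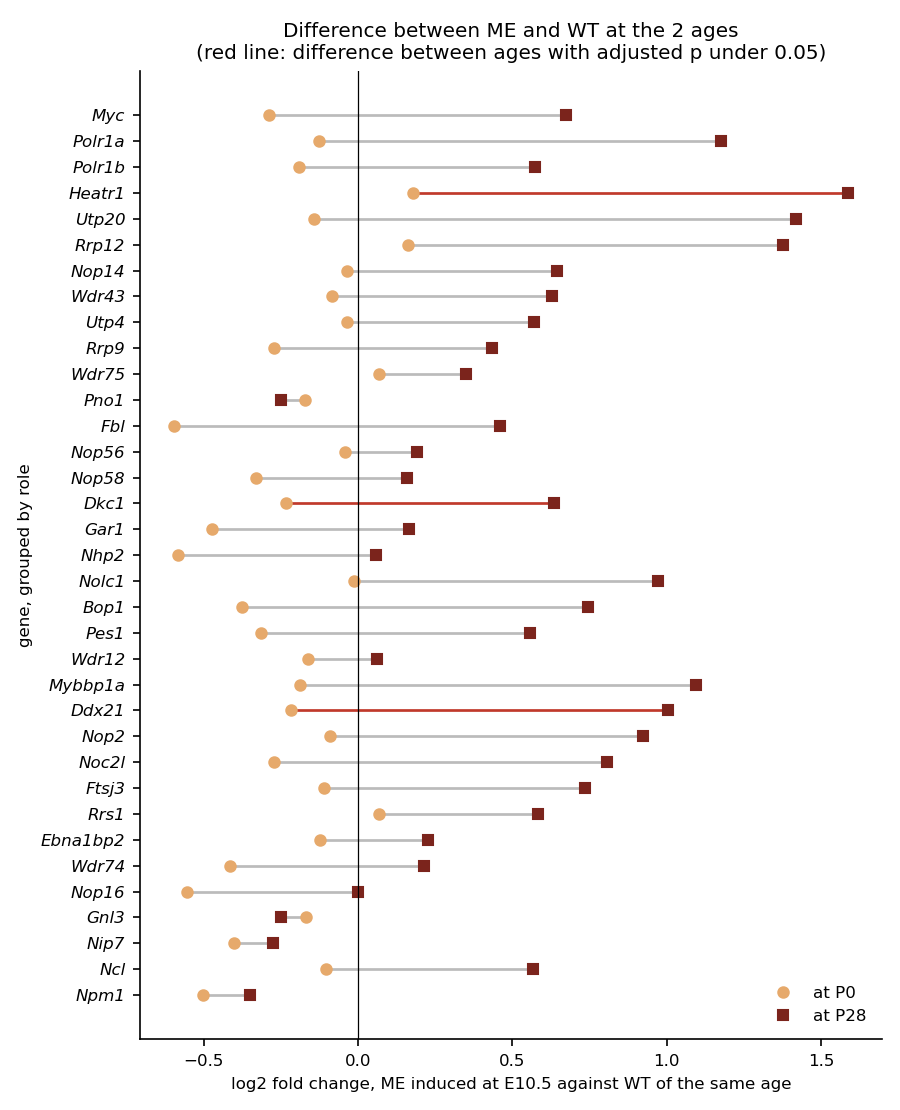
log2 fold change of E10.5-induced ME against WT of the same age for each of the 35 genes, at P0 (circles) and P28 (squares), joined by a line that is red where the difference between the ages passed (edgeR adjusted p under 0.05). For 33 of the 35 genes the P28 value lies to the right of the P0 value, and the lines of Heatr1, Ddx21 and Dkc1 are red.

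The fold changes of the 35 genes were ordered by coding length in most comparisons. In E10.5-induced ME against WT at P28, Spearman's rho between coding length and log2 fold change was 0.83 over the 35 genes, and 0.60 over 9632 coding genes. The 8 genes of at most 1000 coding bases (Npm1, Fbl, Nop16, Gar1, Nhp2, Nip7, Ebna1bp2 and Pno1) had a median log2 fold change of 0.03, against -0.16 for all coding genes of that length. The 21 of middle length had a median of 0.58, against 0.34. The 6 of at least 3000 coding bases (Rrp12, Polr1a, Polr1b, Utp20, Heatr1 and Mybbp1a) had a median of 1.28, against 0.70. Long genes of the set were thus highest, as were long genes in general. For P0-induced ME against WT at P28, rho was 0.84 over the 35 genes and 0.64 over the 9632. The 8 short genes had a median there of -0.28, against -0.17 for all coding genes of that length. The median was 0.34 against 0.27 for middle length, and 0.77 against 0.54 for the long genes. In RLT Vav Txp against E10.5-induced ME the order ran the other way, with a rho of -0.75 over the 35 and -0.51 over the 9632, and in RLT Vav Txp against WT it was 0.02 and 0.05. These are descriptions across genes that share libraries, and genes are not independent replicates. The part of length in the calls was not tested.

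The comparisons were also fitted with offsets for GC content and transcript length in each library. The length was that of the whole transcript with the longest coding sequence of each gene. It includes untranslated bases, so it differs from the coding length used above. In E10.5-induced ME against WT, 11 of the 35 were then called higher and none lower, with a median of 0.40. The 11 were Myc, Polr1a, Heatr1, Rrp12, Nop14, Fbl, Nolc1, Dkc1, Nop2, Mybbp1a and Noc2l. Myc was called there with a log2 fold change of 0.72 (edgeR adjusted p = 0.0336), and Heatr1 had 1.13 (edgeR adjusted p = 0.000456). Utp20, which had the next largest value without offsets, had 0.97 and did not pass (edgeR adjusted p = 0.0623). In P0-induced ME against WT no gene of the 35 was called with the offsets, and in RLT Vav Txp against E10.5-induced ME 2 were called higher (Nip7 and Gnl3) and 4 lower (Myc, Nop2, Polr1a and Heatr1). The interaction gave 6 calls: Pes1, Dkc1, Mybbp1a, Fbl, Heatr1 and Noc2l. With the offsets, 6.22%, 0.556%, 12.8% and 1.82% of all genes were called in either direction in these comparisons, in the order given.

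**Figure D5:**
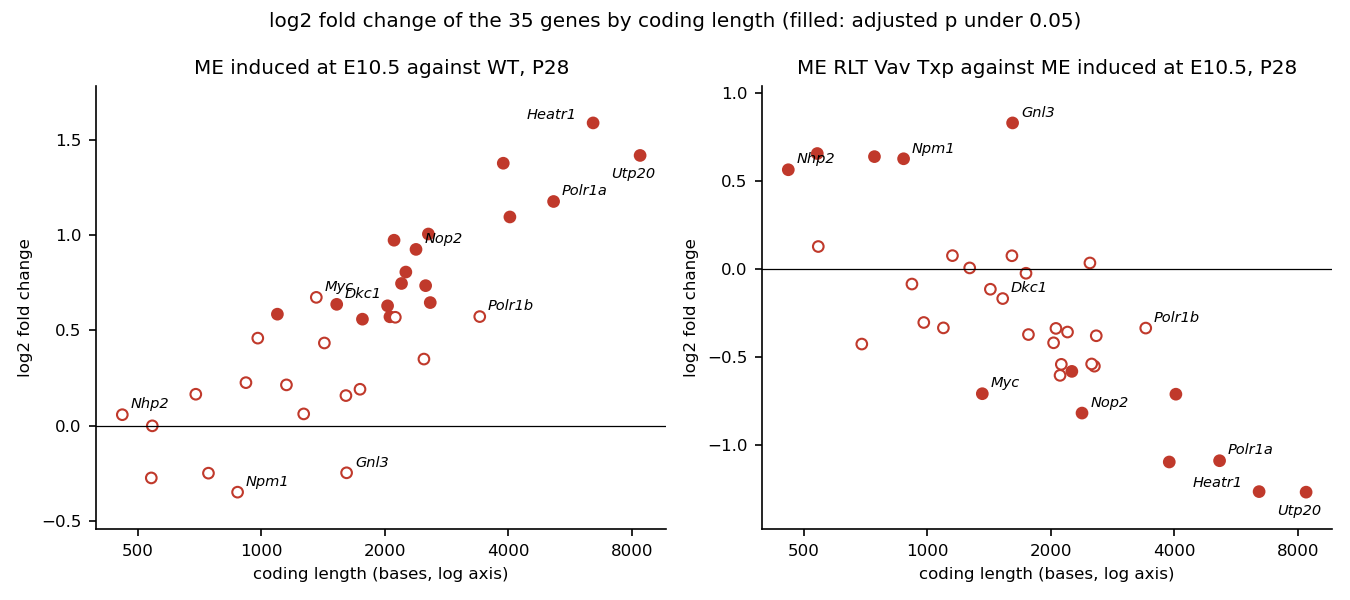
log2 fold change of the 35 genes (points; filled where the edgeR adjusted p was under 0.05) against coding length in bases on a log axis, for E10.5-induced ME against WT (left) and RLT Vav Txp against E10.5-induced ME (right), both at P28. The values climb with length on the left (Spearman's rho 0.83) and descend on the right (rho -0.75).

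Across the 24 libraries most of the 35 genes varied together. Dkc1 had the highest correlation with the mean of the other 34, on standardised log2 CPM (Pearson's r 0.89), then Ddx21 (0.87) and Nop2 (0.84). Against the rest ran 4 genes: Gnl3 (-0.15), Nip7 (-0.24), Pno1 (-0.29) and Npm1 (-0.33). Myc stood at 0.65. These values describe libraries that share 6 groups and differ in depth. In none of the 9 comparisons were 9 of the 35 called: Ncl, Nop16, Nop56, Nop58, Gar1, Wdr12, Wdr74, Wdr75 and Ebna1bp2. Outside the set, the 5 genes most like its mean profile, of 10214 compared, were Rae1 (Pearson's r 0.91), Rcc1 (0.89), Ruvbl1 (0.88), Psmc5 (0.88) and Tbl3 (0.88).

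Of 88 further genes of ribosome biogenesis, 33 were called higher and 3 lower in E10.5-induced ME against WT at P28, with a median of 0.40. Of all genes, 7.82% were called higher and 4.44% lower. Among the 88, the largest rises were in Urb1 (log2 fold change 1.24) and Sdad1 (1.19), both of large subunit maturation. The largest falls were in Taf1d (-0.96), a subunit of the polymerase I initiation factor, and Dimt1 (-0.74), a methyltransferase of small subunit rRNA. In P0-induced ME 5 of the 88 were called higher and none lower, where 0.494% of all genes were called higher and 1.08% lower. In RLT Vav Txp against WT 1 was called higher, Nle1, where 2.64% of all genes were. RLT Vav Txp against E10.5-induced ME gave 5 higher and 25 lower, where 8.5% of all genes were called higher and 9.38% lower. The 25 were led by Dhx37 (-1.14) and Bms1 (-1.07), both of the small subunit processome. With age, 38 were called higher and 4 lower in ME, and none higher and 3 lower in WT. The shares of all genes were 9.79% higher and 8.45% lower in ME, and 3.12% higher and 4.56% lower in WT.

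Among 12 genes of the Myc network, Zbtb17, which codes for the Myc partner Miz-1, and Mga, a Max-binding repressor, were called higher in E10.5-induced ME against WT (log2 fold changes 0.96 and 0.82). Both were called lower in RLT Vav Txp against E10.5-induced ME (-0.87 and -0.75), as were 9.38% of all genes. They were the only 2 of the 12 called in either comparison. Of 39 known Myc targets outside the ribosome, 10 were called higher and 1 lower in E10.5-induced ME against WT. Of all genes, 7.82% were called higher and 4.44% lower there. Cad, which starts pyrimidine synthesis, had 1.78, Mthfd1, of folate metabolism, 1.33, and Nme2, a nucleoside diphosphate kinase, -1.63. Nme2 was at a low level, 1.51 CPM in ME and 4.68 CPM in WT on average, and just under the threshold (SE 0.55, edgeR adjusted p = 0.0498). In P0-induced ME against WT, 1 of the 12 network genes was called (Zbtb17, higher) and none of the 39 targets. The share of all genes was 0.494% higher and 1.08% lower.

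Reads were counted by a setting whose strand use is not given in the sources used here. Of the 35 genes, 15 overlap an annotated gene on the other strand, among them Heatr1 (Lgals8), Mybbp1a (Spns2), Dkc1 (Mpp1), Noc2l (Samd11) and Nhp2 (Rmnd5b), so reads of the pair may not be told apart. Within 6 genes lie annotated snoRNA genes (Ncl, Nop56, Nop58, Dkc1, Wdr43 and Gnl3), and Fbl has an annotated pseudogene, Fbl-ps2.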

How the data were processed

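The deposited table holds raw read counts per Ensembl gene for 24 libraries. Per the submitters' processing notes, the authors used STAR 2.7.9a, Subread and featureCounts 2.0.3 on GRCm38; the annotation, the strand setting and the handling of reads with several matches are not given in the sources used here. Per the labels, extraction used RNeasy Plus and library construction Clontech SMARTer. Of 55774 entries, 287 repeats were dropped. Genes with too few counts were removed with filterByExpr (minimum count 10), leaving 23059, and the counts were scaled by TMM. The 9 comparisons were tested with edgeR 4.0.16 (R 4.3.3) by the robust quasi-likelihood F-test on all 24 libraries, with 18 residual degrees of freedom and Benjamini-Hochberg adjustment over all genes; a gene was called at an adjusted p under 0.05. log2 CPM used a prior count of 2. Coding lengths and coordinates are from GENCODE M21, promoters from RefSeq. In the smallest library 1 CPM is 31.2 reads. The procedure was tested on simulated data. Members, lists and tests were chosen with earlier results of these data known. In each comparison the genes named with full statistics were Myc and the called members, at most 8 by size, or the 2 with the lowest p where none was called, and at most 2 called genes per direction of each other list. Alternatives were RLE factors, plain totals, DESeq2 1.42.0, limma 3.58.1 with quality weights, 2 other filters, fits of only the groups compared, a replicate block, GC and length offsets, and leaving out each library.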

Additional observations from a re-analysis of the deposited data

Results flagged for a closer look

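In 16 of the 210 sets of 4 libraries formed by the 35 genes and 6 groups, the highest or lowest library lay apart from the other 3 by a larger share of the range than Dixon's critical value for 4 samples. Chance flags about 1 set in 20. In P0 WT these were Myc in replicate 1 (121 CPM) and Gar1 (151 CPM) and Heatr1 (38.8 CPM) in replicate 4. In P0 ME they were Nop58 in replicate 4 (266 CPM) and Rrp12 in replicate 3 (52.5 CPM). In P28 WT they were Nhp2 (97.8 CPM), Pes1 (70.04 CPM) and Wdr75 (55.2 CPM) in replicate 3, and Bop1 (92.3 CPM) and Polr1b (87.6 CPM) in replicate 4. In E10.5-induced ME they were Wdr12 (163 CPM) and Noc2l (265 CPM) in replicate 4, and in P0-induced ME it was Gnl3 in replicate 2 (169 CPM). In RLT Vav Txp all 3, Ncl (1379 CPM), Gnl3 (183 CPM) and Ddx21 (138 CPM), were in replicate 1.

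The difference between E10.5-induced ME and WT was larger at P28 than at P0 for Heatr1 (by 1.41 on the log2 scale), Ddx21 (by 1.22) and Dkc1 (by 0.87), by the interaction in edgeR.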

How the results depend on the processing

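The number of the 35 genes called varied with the setting. Each count is followed, in brackets, by the share of all genes called in either direction in the same fit. For E10.5-induced ME against WT at P28 (17, 12.3%) it was 9 with plain totals (9.76%), 9 without a filter (4.28%) and 11 with GC and length offsets (6.22%). Limma called 22 higher and 1 lower (28.2%), and a fit of only the groups compared called 21 higher and 1 lower (34%). For P0-induced ME against WT (2, 1.57%) it was 1 with RLE factors (1.95%), 1 with plain totals (2.29%) and 1 without a filter (0.5%). It was 6 in DESeq2 (8.12%), 19 in limma (21.7%), 20 with only the groups compared (27.9%) and 0 with the offsets (0.556%). For RLT Vav Txp against WT (0, 4.12%) it was 1 with at least 10 counts in at least 12 libraries (4.92%) and 2 in DESeq2 (7.13%). It was 3 in limma (6.17%), 1 with only the groups compared (6.22%) and 1 with the offsets (5.73%). For P0-induced against E10.5-induced ME (0, 0.0477%) it was 18 in limma (10.1%) and 6 with only the groups compared (6.35%). For RLT Vav Txp against E10.5-induced ME (13, 17.9%) it was 8 without a filter (7.02%), 25 in limma (34.9%) and 6 with the offsets (12.8%). For ME against WT at P0 (0, 0.642%) it was 1 with the filter over 12 libraries (1.07%) and 1 in DESeq2 (3.48%). For age in WT (2, 7.68%) it was 1 with RLE factors (7.52%). With plain totals it was 1 (7.23%), a gene called higher in place of the 2 lower. It was 1 without a filter (3.02%), 4 in DESeq2 (12%) and 1 in limma (5.58%). With only the groups compared it was 0 (2.5%), and with the offsets 6 (10.4%). For age in ME (19, 18.2%) it was 11 without a filter (7.64%). For the interaction (3, 0.72%) it was 0 with RLE factors (0.373%), 0 with plain totals (0.317%) and 0 without a filter (0.158%). It was 7 in DESeq2 (3.39%), 10 in limma (2.79%), 0 with only the groups compared (0.188%) and 6 with the offsets (1.82%). The cause of these changes was not tested. With plain totals the all-gene median moved from -0.10 to -0.23 in E10.5-induced ME against WT, from -0.07 to 0.08 for age in WT, from -0.02 to 0.09 between the induction times and from -0.04 to -0.24 for the interaction.

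Leaving out 1 library at a time gave 5 to 18 calls for E10.5-induced ME against WT (3.7% to 11.3% of all genes called). It gave 0 to 2 for P0-induced ME (0.0289% to 2.68%) and 0 to 1 for RLT Vav Txp against WT (2.63% to 3.55%). There were 0 to 0 between the induction times (0.0164% to 0.0617%) and 4 to 24 for RLT Vav Txp against E10.5-induced ME (8.51% to 21.5%). Such fits gave 0 to 3 at P0 (0.432% to 2.38%) and 0 to 6 for age in WT (4.72% to 10.2%). For age in ME they gave 10 to 17 (11.1% to 19.7%) and for the interaction 0 to 16 (0.0452% to 6.84%). One named value changed sign: Myc in RLT Vav Txp against WT, at -0.03, was 0.12 without P28 WT replicate 4, 0.05 without RLT Vav Txp replicate 2 and 0.03 without its replicate 4. Over the 43 values of named genes, 339 of 408 other alternatives kept the side of the threshold and the direction, 47 lost the call and 22 gained one. Of 376 fits without 1 library, 255 kept both, 112 lost the call, 6 gained one and 3 changed sign.

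Of 40 pairs of same-numbered libraries from different groups, 14 deviated together with a correlation over 0.1 (range -0.39 to 0.66), and 8 of 20 libraries correlated best with their own number. Between P0 WT and P0 ME the correlations were 0.66, 0.05, 0.37 and 0.46 for replicates 1 to 4. The numbers were not taken to pair the samples, since the labels do not say that a number marks a litter, batch or day. Whether the P0 libraries were paired is not settled by these correlations. A replicate block on the 20 numbered libraries gave 1 call at P0 (lower), 5 for P0-induced ME against WT, 5 for age in WT and 9 for the interaction. Of all genes, 0.778%, 4.25%, 7.59% and 1.49% were called there. The same libraries without a block gave 0, 5, 4 and 9, where 0.805%, 3.61%, 8.06% and 1.64% of all genes were called. The RLT Vav Txp group carries no replicate numbers in its labels and had no such fit.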

Other observations

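Of the 29 genes with a promoter window, the 7 with CACGTG had a median log2 fold change of 0.63 in E10.5-induced ME against WT at P28, with 6 of them called higher; Pno1 was not. The 22 without it had a median of 0.39, with 8 called higher. Of all genes, 7.82% were called higher. The 2 groups differ in coding length. Of the short genes with a window, Pno1 held the motif and Nop16, Gar1, Nhp2, Nip7 and Ebna1bp2 did not. Of the long genes with a window, Utp20 and Mybbp1a held it and Heatr1, Polr1a and Polr1b did not. The part of length was not tested. Among 33 Myc targets outside the ribosome with a window, 12 held the motif, and among 77 other genes of ribosome biogenesis, 15 did. The difference between genes with and without the motif was not tested.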
